A study of Mus musculus with 3 samples.

Results

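The genes of the p53, ATM and DNA break checkpoint were examined in thymocytes, the T cells maturing in the thymus, from 3 wild-type mice. The group was defined by symbol and holds 10 genes: the damage kinases Atm and Atr, the effector kinases Chek1 and Chek2, the chromatin mediators Mdc1, Trp53bp1 and Brca1, the p53 inhibitors Mdm2 and Mdm4, and Trp53 itself. Of these, 9 had a probe set annotated to that symbol alone, out of 19938 genes so named on the array. Trp53 was not analysed here. Each of the 9 genes was read by 1 probe set, so every level below is that of a single probe set.

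Thymocytes cut their own DNA when the RAG recombinase assembles T cell receptor genes, and the checkpoint responds to those breaks as well as to breaks and stalled forks in replicating cells. ATM is recruited to broken ends and ATR to single-stranded DNA, and both phosphorylate many proteins, among them the kinases CHK2 and CHK1. MDC1 binds the phosphorylated histone H2AX next to a break, 53BP1 holds back the trimming of DNA ends, and BRCA1 promotes repair by homologous recombination. MDM2 and MDM4 keep p53 inactive in unstressed cells, MDM2 by marking it for degradation. Mice or people lacking ATM or p53 develop thymic lymphomas or other lymphoid tumours at a raised rate.

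The mice carry the numbers 92, 103 and 106 in the labels. All were of wild-type genotype on a mixed FVB and C57BL6 background, untreated as far as the labels say, and no age or sex is given. They served as the normal controls of a study on invasive lymphomas of tPTEN-/- mice, and the tumours were not analysed here, so no comparison between groups was made. A disease entry in the labels names T cell lymphoma for these 3 samples too, against their titles and genotypes. RNA was hybridised to Affymetrix MoGene 1.0 ST arrays, which report a log2 level for each of 35557 probe sets. An RNA integrity number of 3, which is low, and an RNA amount of 0.3 µg are entered for every sample. Nothing in the labels says how the samples were taken apart from their numbers, so the p-values below measure the spread between these 3 samples, which may be technical in part, and 3 arrays give little precision.

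The labelled cell type was borne out by its markers, and mouse 92 stood apart in markers of neutrophils and B cells. All 12 measured thymocyte markers, among them Cd3e, Cd4, Cd8a, Rag1 and Dntt, were above background on every array, and their mean log2 level was 12.18, 12.02 and 12.11 in mice 92, 103 and 106. The 9 neutrophil markers had a mean log2 level of 6.29, 8.25 and 7.84, and the 8 B cell markers one of 6.53, 7.62 and 7.39, in the same order of mice. Mean log2 levels in that order were 6.40, 7.23 and 6.97 for 5 erythroid markers, 6.69, 7.13 and 6.91 for 8 macrophage and dendritic cell markers, 6.37, 6.62 and 6.42 for 7 thymic epithelial markers, and 7.12, 7.23 and 7.16 for 6 fibroblast and endothelial markers. The mean of every one of these other lists was thus highest in mouse 103 and lowest in mouse 92. Single genes were less uniform. Of the markers above background on at least 1 array, mouse 92 was lowest for 9 of 9 neutrophil and 8 of 8 B cell markers. It was lowest for 2 of 3 erythroid, 4 of 5 macrophage and dendritic cell, 2 of 6 thymic epithelial and 2 of 5 fibroblast and endothelial markers. The genes not above background on all 3 arrays were Bank1 and Cr2 of B cells, Elane, Mpo and Retnlg of neutrophils, Klf1 and Epb42 of erythroid cells, Adgre1, Cd14 and Mrc1 of macrophages and dendritic cells, Krt5, Krt14 and Foxn1 of thymic epithelium, and Pdgfra and Cdh5 of fibroblasts and endothelium. Xist, the RNA of the inactive X chromosome, was at 5.30, 11.85 and 11.67 (log2 levels in mice 92, 103 and 106). Mouse 92 alone was thus below its background threshold for Xist, which was 5.91. The labels give no sex, so a difference in sex and mouse 92 itself cannot be told apart in the spreads between mice below. In bulk samples, fewer cells of a type and less RNA per cell cannot be told apart.

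All 9 measured checkpoint genes were above background on each of the 3 arrays. Background was the 95th percentile of 1203 genes for olfactory, vomeronasal and trace amine receptors, whose transcripts belong to sensory epithelium of the nose. The threshold was a log2 level between 5.91 and 6.10, depending on the array, and 61.8% of all named genes exceeded it on every array. The smallest margin of a checkpoint gene over the threshold was 1.26 on the log2 scale, for Chek2 in mouse 103. Probes differ in affinity, so a margin does not rank the genes by level, and no difference in level between genes is reported. The comparisons below are within a gene, between mice.

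**Figure D1:**
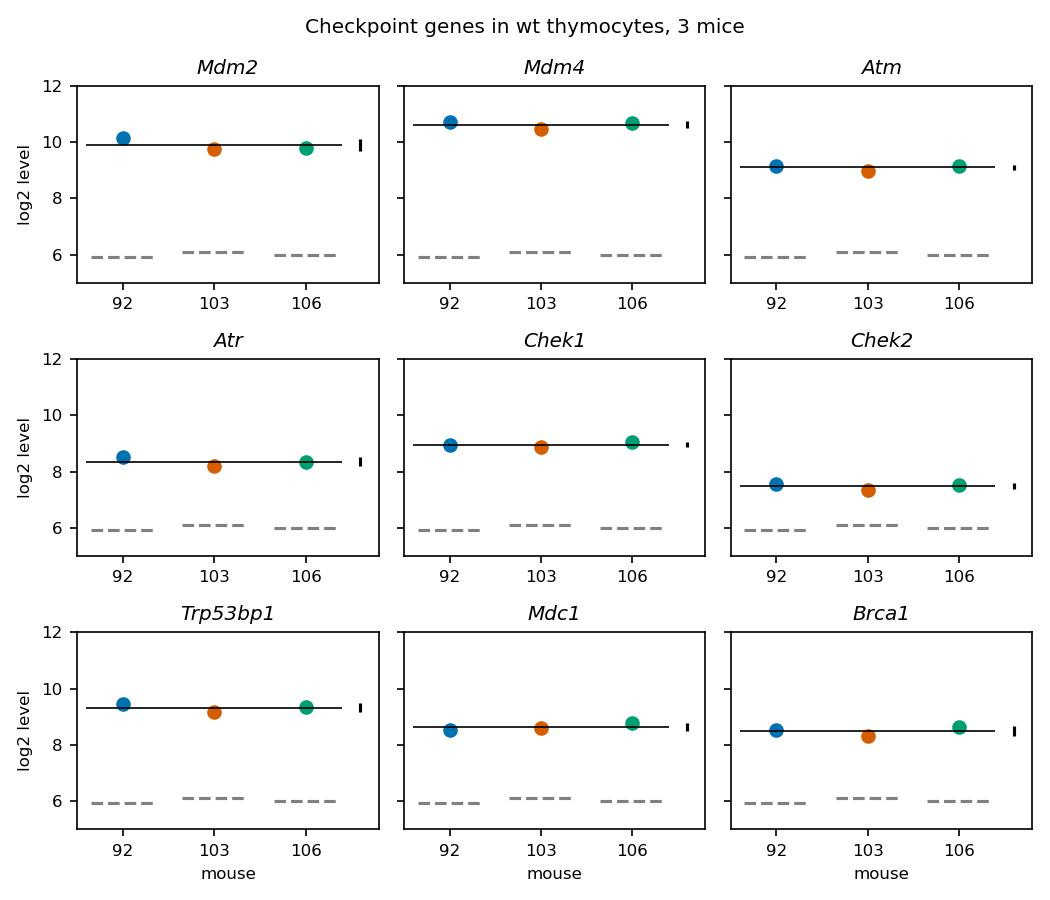
Log2 level of each checkpoint gene (vertical axis) on the array of mouse 92, 103 and 106 (points). The horizontal line is the mean, the bar at the right spans the mean ± SD of the 3 mice, and dashed grey marks are each array's background threshold. Every point lies above its threshold, by 1.26 or more on the log2 scale.

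The damage kinases stand at the head of the pathway. Atm, the kinase that responds to double-strand breaks, measured 9.17 in mouse 92, 8.99 in mouse 103 and 9.14 in mouse 106 on the log2 scale, a mean of 9.10 ± 0.10 (SD, n = 3). Its levels spanned 1.13-fold, with mouse 103 lowest and the other mice almost equal. Atr, the kinase that answers replication stress, measured 8.52 in mouse 92, 8.18 in mouse 103 and 8.35 in mouse 106 on the log2 scale, with a mean of 8.35 ± 0.17 (SD, n = 3). Mouse 103 was again lowest, and the range was 1.27-fold.

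Both effector kinases were read. Chek1, which encodes CHK1 and restrains entry into mitosis when replication is incomplete, showed log2 levels of 8.94, 8.89 and 9.05 in mice 92, 103 and 106 (mean 8.96 ± 0.08, SD, n = 3). Its range of 1.12-fold was the narrowest of the 9 checkpoint genes, and mouse 106 was highest. Chek2, which encodes the ATM target CHK2, showed log2 levels of 7.55, 7.36 and 7.53 in mice 92, 103 and 106 (mean 7.48 ± 0.10, SD, n = 3). As for Atm, mouse 103 was lowest and mice 92 and 106 lay close together. Of the 36 pairs of checkpoint genes, Atm and Chek2 had the most alike deviations from their means, with a Euclidean distance of 0.01 over the 3 mice, a description of 3 points each.

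The mediators included the one gene that was not lowest in mouse 103. Mdc1 measured 8.51 in mouse 92, 8.61 in mouse 103 and 8.77 in mouse 106 on the log2 scale, with a mean of 8.63 ± 0.13 (SD, n = 3), so that mouse 92 was lowest and mouse 106 highest. Trp53bp1, which encodes 53BP1, showed log2 levels of 9.47, 9.16 and 9.34 in mice 92, 103 and 106 (mean 9.32 ± 0.15, SD, n = 3), with the opposite order of mice 92 and 103. Brca1 showed log2 levels of 8.53, 8.31 and 8.64 in mice 92, 103 and 106, a mean of 8.49 ± 0.17 (SD, n = 3) and a range of 1.26-fold. Brca1, Mdc1 and Chek1 were highest in mouse 106, and the other 6 genes in mouse 92.

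Both p53 inhibitors were read as well. Mdm2, which encodes the ubiquitin ligase of p53 and is itself a p53 target, had the widest spread of the 9 genes, with log2 levels of 10.15, 9.75 and 9.79 in mice 92, 103 and 106 (mean 9.90 ± 0.22, SD, n = 3). The range was 1.33-fold, with mouse 92 above the other mice, which were close to each other. Mdm4, a relative of MDM2 that binds p53 and blocks its activation domain, showed log2 levels of 10.72, 10.48 and 10.68 in mice 92, 103 and 106 (mean 10.63 ± 0.13, SD, n = 3). For Mdm4 it was mouse 103 that lay below the others. The 5 genes with deviations nearest to those of Mdm2 were Mbtd1, Rmi1, Zfp953, Tbpl1 and Snora75, at Euclidean distances of 0.002 to 0.009 over 3 mice. Of 12314 genes compared, 541 lay within a distance of 0.1 of Mdm2, so such likeness is common in 3 samples.

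Whether the spread of any checkpoint gene between mice exceeded that usual for its level was tested with limma across 13316 genes above background on at least 1 array. None of the 9 did, at a Benjamini-Hochberg adjusted p under 0.05 or at an unadjusted p under 0.05. The smallest unadjusted p was 0.139, for Mdm2, and the adjusted p-values of the 9 genes were 0.996 to 0.997 (limma). Over all genes tested, 30 were called, which is 0.225%, and 646, or 4.85%, had an unadjusted p under 0.05. Among the 30 were 5 neutrophil markers, 1 B cell marker (Cr2) and 1 erythroid marker (Alas2), each lowest in mouse 92. The median SD between mice was 0.13 for the checkpoint genes and 0.13 for all genes tested, and 5 of the 9 lay above the latter. Without mouse 92 these were 0.12 and 0.10, with 8 of 9 above, without mouse 103 0.08 and 0.11, with 3 of 9 above, and without mouse 106 0.16 and 0.12, with 7 of 9 above. The smallest SD of any called gene was 0.76, and that of Mdm2 was 0.22. Without mouse 92, 103 or 106 the smallest SD of a called gene was 0.39, 0.69 and 0.58, and the largest SD of a checkpoint gene was 0.23, 0.25 and 0.29. A p above the threshold does not show that the mice had equal levels. With mouse 92, 103 or 106 left out, limma called 0 of the 9 genes, and 0 had an unadjusted p under 0.05. Over all genes tested in these fits, 58 of 13095, 51 of 13134 and 84 of 13204 were called. In the same fits 740, 761 and 744 of all genes tested had an unadjusted p under 0.05.

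**Figure D2:**
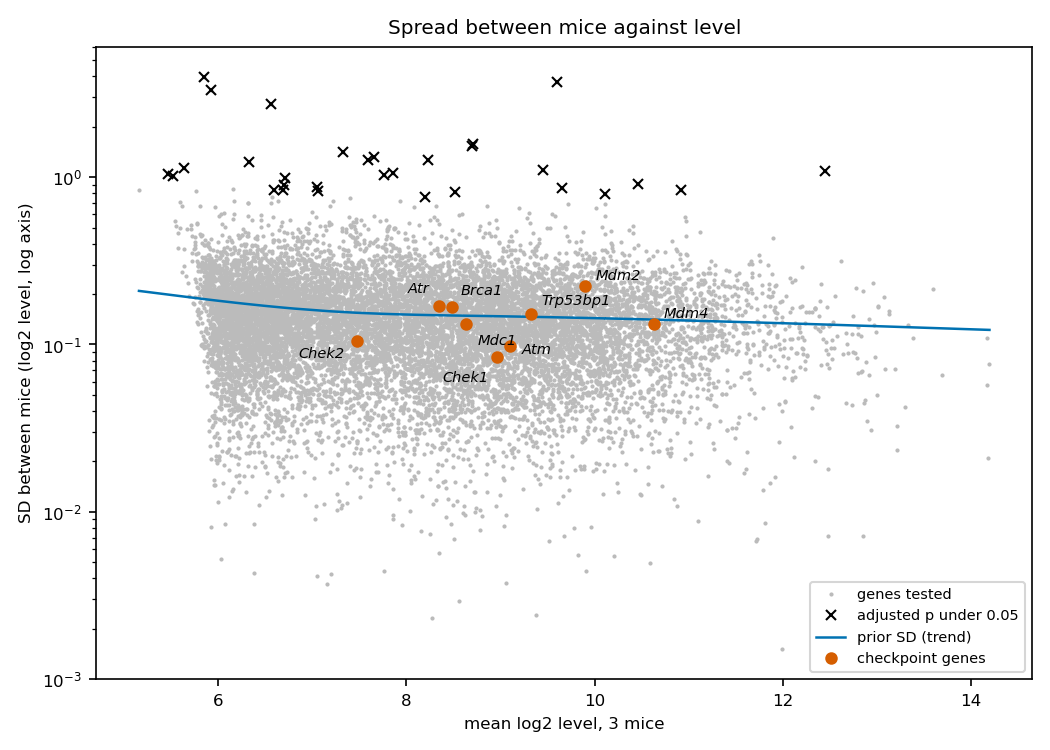
SD between the 3 mice (vertical axis, log scale, in units of log2 level) against mean log2 level for 13316 genes tested (grey), the 30 genes called by limma (crosses), the prior SD expected at each level (line) and the 9 checkpoint genes (orange). The checkpoint genes lie between 0.08 and 0.22, around the line and below every called gene.

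Most of the group had the same mouse lowest. Of the 9 checkpoint genes, 8 had their lowest level in mouse 103, Mdc1 being the exception, and 0 had their highest level there. Over all genes tested, 28.3% were lowest and 39.1% were highest in mouse 103. The checkpoint genes had a median log2 difference of 0.17 between mouse 106 and mouse 103, the level in mouse 106 being higher for 9 of 9, while the median over all genes tested was -0.04. Between mouse 92 and mouse 103 the median log2 difference was 0.22, positive for 8 of 9, against -0.01 over all genes tested. The SD over all genes tested of these differences was 0.22 for mice 106 and 103 and 0.30 for mice 92 and 103, and single checkpoint genes differed by 0.05 to 0.33 and by -0.10 to 0.41 on the log2 scale. This order was noticed after the values were seen, the genes are not independent of each other, and it was given no test.

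Of the 32 digits of an array identifier in the labels, mice 92 and 106 have the first 30 in common, and mouse 103 has the first 9 in common with each. The labels do not explain the digits, and with 1 array apart from the others this difference and mouse 103 itself cannot be told apart. Between mice 92 and 106, the pair with like identifiers, the median log2 difference of the checkpoint genes was 0.02, positive for 6 and negative for 3, and that of all genes tested was 0.02. Mouse 103 also had the highest mean levels of neutrophil, B cell, erythroid, macrophage, epithelial and stromal markers and the lowest of thymocyte markers, with 7 of 12 thymocyte markers lowest there, and the part of these in the order of the checkpoint genes was not tested. After quantile normalisation 7 of the 9 checkpoint genes remained lowest in mouse 103, Chek1 no longer being so, beside 22.5% of all genes tested. After centring the arrays on their medians the same 8 genes were lowest in mouse 103, beside 28.4%.

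**Figure D3:**
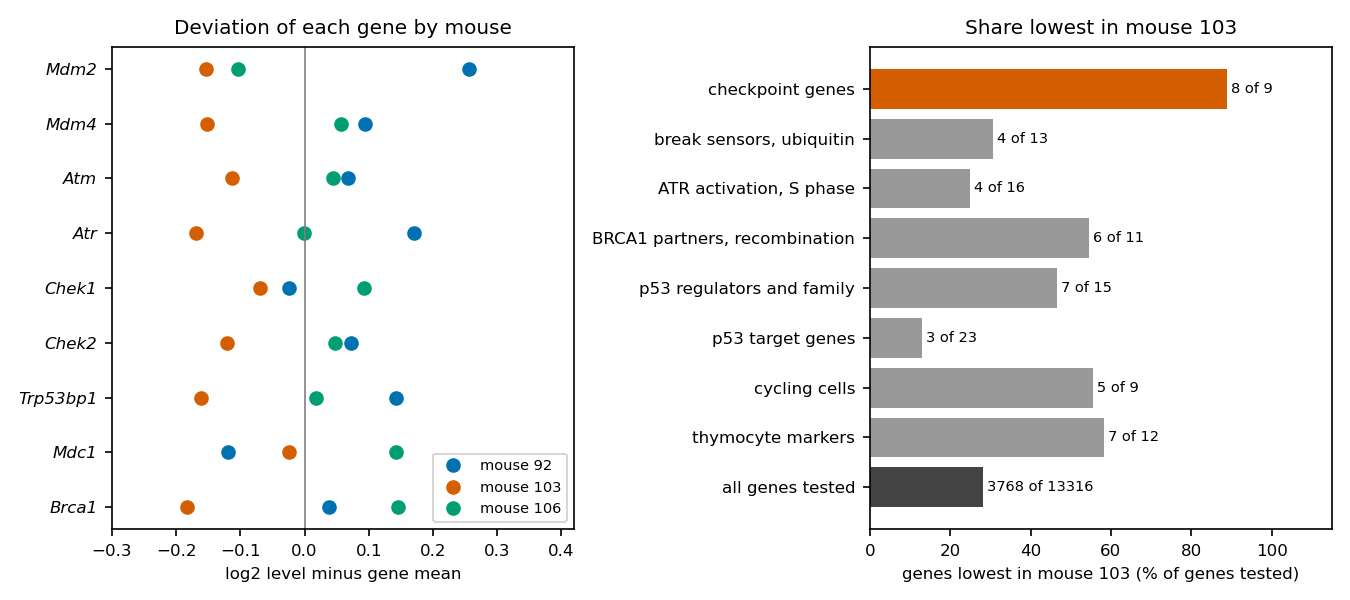
Left, log2 level minus the gene's mean (horizontal axis) for each checkpoint gene in mouse 92 (blue), 103 (orange) and 106 (green), with mouse 103 leftmost for 8 of 9 genes. Right, percentage of the tested genes of each list that were lowest in mouse 103, with counts at the bars: 8 of 9 checkpoint genes, 3 of 23 p53 target genes and 3768 of 13316 genes tested.

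Most genes listed as working with the checkpoint were also read above background. Of the break sensors and ubiquitin mediators, 13 of 13 measured genes were above background, beside 61.8% of named genes, and 4 of 13 were lowest in mouse 103. H2ax, the histone that ATM phosphorylates, showed log2 levels of 9.91, 10.19 and 10.48 in mice 92, 103 and 106. Herc2, a ubiquitin ligase, averaged 9.78 ± 0.08 and Brcc3, a deubiquitinase of the BRCA1-A complex, 9.67 ± 0.12 (log2 level, SD, n = 3). Rif1, which acts with 53BP1 to protect DNA ends, had the widest spread of the list, with log2 levels of 8.37, 7.70 and 8.50 in mice 92, 103 and 106. Its levels spanned 1.75-fold between mice 106 and 103, and it was not called with all mice (adjusted p = 0.547, limma). Rif1 was called without mouse 92 (adjusted p = 0.0131, limma), as were 58 of 13095 genes tested in that fit, Rif1 included. No other gene of the 6 pathway lists was called with all mice or with any mouse left out.

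Genes of ATR activation and the S-phase checkpoint were above background in 16 of 16 cases, and 4 of 16 were lowest in mouse 103. Topbp1, the activator of ATR, averaged 10.36 ± 0.07, Rpa1, a subunit of the single-strand binding complex, 9.87 ± 0.05 and Cdc25b, a phosphatase that checkpoint kinases restrain, 9.65 ± 0.12 (log2 level, SD, n = 3). Rpa3, another subunit of that complex, spread most, with log2 levels of 8.31, 7.76 and 7.72 in mice 92, 103 and 106, and was not called (adjusted p = 0.922, limma). Among BRCA1 partners and recombination genes, 11 of 11 were above background and 6 of 11 were lowest in mouse 103. The helicase gene Blm averaged 8.46 ± 0.13, Brip1, which encodes a BRCA1-bound helicase, 8.37 ± 0.13 and Rad54l, which encodes a DNA translocase of recombination, 8.28 ± 0.10 (log2 level, SD, n = 3). Brca2, a gene of homologous recombination, showed log2 levels of 7.23, 7.07 and 7.56 in mice 92, 103 and 106, the same order of mice as Brca1.

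The regulators and relatives of p53 were above background in 15 of 15 cases, with 7 of 15 lowest in mouse 103. Usp7, which encodes a deubiquitinase of MDM2 and p53, averaged 11.66 ± 0.17, the acetyltransferase gene Crebbp 11.36 ± 0.17 and the ubiquitin ligase gene Ube4b 10.47 ± 0.08 (log2 level, SD, n = 3), each lowest in mouse 103. The kinase gene Hipk2 spread most, with log2 levels of 7.98, 8.06 and 8.51 in mice 92, 103 and 106. Proliferation genes were all above background, 9 of 9, with 5 of 9 lowest in mouse 103. Of the same 9 genes, 7 were highest in mouse 106, as were 3 of the 9 checkpoint genes (Brca1, Mdc1 and Chek1), beside 23.6% of all genes tested. Mki67, the marker of cycling cells, showed log2 levels of 11.05, 10.86 and 11.38 in mice 92, 103 and 106, and Rrm2, a ribonucleotide reductase subunit, 10.87, 10.79 and 11.13. The clamp gene Pcna went another way, at 12.43, 12.30 and 12.12, and the licensing gene Mcm5 spread most, at 9.80, 10.27 and 10.34 (log2 levels in mice 92, 103 and 106).

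Of the target genes of p53, 3 of 23 tested were lowest in mouse 103, beside 28.3% of all genes tested, and 12 of 23 were lowest in mouse 106, beside 36.6%. Above background were 23 of 27 measured targets, while Cdkn1a and Bax were not analysed here. Trp53inp1, which encodes a stress protein that promotes p53 activity, showed log2 levels of 13.23, 12.84 and 12.81 in mice 92, 103 and 106, with mouse 92 highest as for Mdm2. The targets were divided in this, with 12 of 23 highest in mouse 92, beside 37.4% of all genes tested, and 8 of 23 lowest there, beside 35.1%. The antiproliferative gene Btg2 averaged 11.50 ± 0.09 and the cyclin G gene Ccng1 10.98 ± 0.11 (log2 level, SD, n = 3). The death genes Bbc3, which encodes PUMA, and Pmaip1, which encodes NOXA, averaged 7.80 ± 0.01 and 6.88 ± 0.07 (log2 level, SD, n = 3). The 4 targets not above background on all arrays were Perp (mean log2 level 5.51), Eda2r (4.07), Plk2 (5.66) and Casp1 (5.42). Plk2 spread most of the list and was not tested, since no array exceeded its threshold. In limma 0 genes of the 6 pathway lists were called, beside 0.225% of all genes tested, and 4 of 87 had an unadjusted p under 0.05, a share near the 4.85% of all genes tested.

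The start regions of the checkpoint genes were read from RefSeq on build GRCm38.p6, as windows from 250 bases before to 50 after each transcription start. All 9 measured genes were found, with 10 windows, since Mdm4 has 2 starts. The windows held 4 to 35 CpG pairs, against a median of 7 over 32851 promoters, and 9 of the 10 had at least 9. Motifs were searched as letters on both strands. The ETS letters CCGGAAG occurred in 4 of 9 genes (Mdm2, Mdm4, Atm and Atr), against 8.86% of all promoters, and the E2F letters TTCCCGC in 4 of 9 (Atm, Chek1, Chek2 and Mdc1), against 4.60%. CCAAT occurred in 5 of 9 genes, against 37.4%, and the SP1 letters GGGCGG in 5 of 9, against 35.7%. The 10-letter NRF1 motif was found in Atm alone among the 9, at 2 places, against 4.60% of promoters, and TTTGAA (17.9%) and TTTGGCGC (0.514%) in 0 of 9. Members are counted as genes and the background as windows, which include those of noncoding genes. A match is not evidence of binding, and no binding was measured.

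The windows of 4 genes are printed because they belong to the genes with the most alike deviations from their means, Atm and Chek2, to the gene with the widest spread, Mdm2, and to the 1 gene not lowest in mouse 103, Mdc1. Capitals mark matches to the ETS, E2F, NRF1 and CCAAT letters and to the p53 decamer. The windows are Atm at chr9:53536622-53536921 on the minus strand, Chek2 at chr5:110839733-110840032 on the plus strand, Mdm2 at chr10:117710709-117711008 on the minus strand and Mdc1 at chr17:35841248-35841547 on the plus strand. All are written 5′ to 3′ on the strand of the gene.
Atm: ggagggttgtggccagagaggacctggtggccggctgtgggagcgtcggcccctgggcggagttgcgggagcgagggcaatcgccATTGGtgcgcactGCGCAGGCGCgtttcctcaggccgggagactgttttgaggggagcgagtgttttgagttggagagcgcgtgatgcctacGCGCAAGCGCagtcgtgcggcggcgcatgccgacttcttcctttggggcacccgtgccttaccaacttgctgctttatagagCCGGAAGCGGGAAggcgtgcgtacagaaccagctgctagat
Chek2: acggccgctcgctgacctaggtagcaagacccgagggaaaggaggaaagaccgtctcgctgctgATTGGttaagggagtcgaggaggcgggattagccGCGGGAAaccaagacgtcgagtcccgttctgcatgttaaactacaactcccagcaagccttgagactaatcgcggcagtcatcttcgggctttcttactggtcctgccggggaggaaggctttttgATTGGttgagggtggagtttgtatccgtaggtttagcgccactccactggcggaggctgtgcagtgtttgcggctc
Mdm2: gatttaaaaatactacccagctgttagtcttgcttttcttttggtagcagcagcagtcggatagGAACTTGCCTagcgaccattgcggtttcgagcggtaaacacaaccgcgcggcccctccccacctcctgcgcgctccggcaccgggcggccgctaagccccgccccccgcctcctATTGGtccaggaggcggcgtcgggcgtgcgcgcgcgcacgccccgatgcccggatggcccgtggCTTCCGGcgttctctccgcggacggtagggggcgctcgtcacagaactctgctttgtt
Mdc1: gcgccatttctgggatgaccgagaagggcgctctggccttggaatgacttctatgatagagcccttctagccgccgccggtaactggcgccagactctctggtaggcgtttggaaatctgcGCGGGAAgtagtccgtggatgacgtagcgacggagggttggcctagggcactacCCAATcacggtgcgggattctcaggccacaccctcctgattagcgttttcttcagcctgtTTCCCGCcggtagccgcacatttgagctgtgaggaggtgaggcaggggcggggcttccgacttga
In Atm the ETS and E2F matches overlap by 1 base and lie just after the start, with the NRF1 matches upstream. Atm, Chek2 and Mdc1 each hold CCAAT and E2F matches, and Mdc1 has 2 E2F matches. The Mdm2 window holds the only p53 decamer among the 9 genes, at position -186 from the start, against 8.36% of promoters with such a match. A p53 response element consists of a pair of decamers, and the known p53-responsive promoter of Mdm2 lies in its first intron, which is outside this window.

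**Figure D4:**
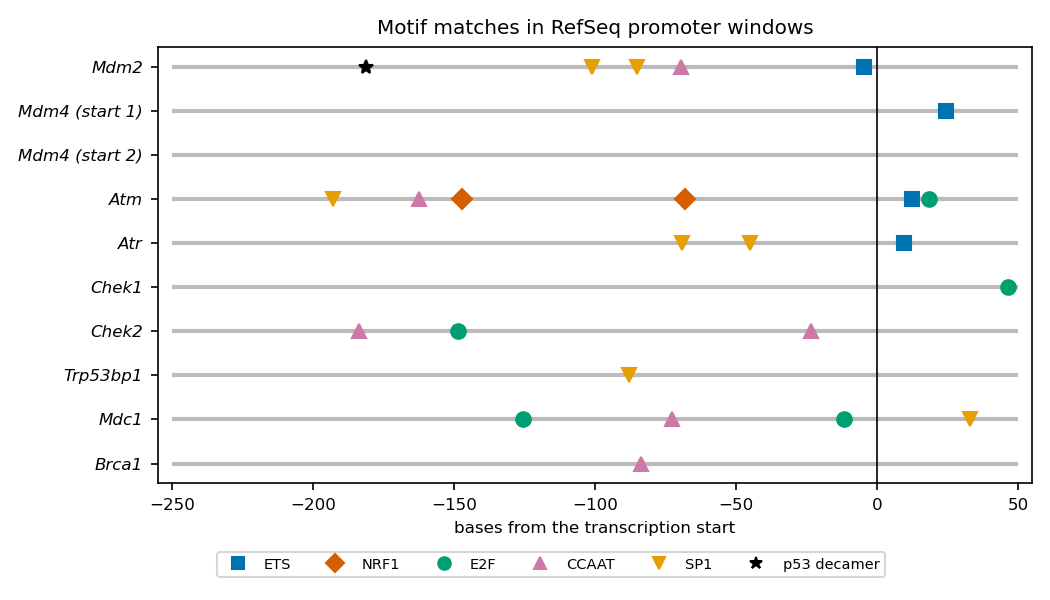
Matches to the searched letters in each 300-base start window, by distance from the transcription start in bases (horizontal axis, start at 0). Each grey line is a window and each symbol a match: Atm has 2 NRF1 matches, Mdm2 the p53 decamer, and the second Mdm4 window has none.

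Some of the genes share their start region with a neighbour that points the other way. A start of another protein-coding gene on the opposite strand, leading away, lay within 1000 bases for 3 of 9 checkpoint genes, against 8.48% of 17492 protein-coding genes. Npat, a coactivator of histone genes, starts 376 bases from Atm and showed log2 levels of 8.95, 8.69 and 8.86 in mice 92, 103 and 106. Nbr1, an autophagy receptor gene, starts 152 bases from Brca1 and showed log2 levels of 10.63, 10.36 and 10.43 in the same order. Both neighbours were lowest in mouse 103, as Atm and Brca1 were, beside 28.3% of all genes tested. The start of 1700065D16Rik, 80 bases from that of Atr, belonged to a gene that was not above background on all arrays, with a mean log2 level of 4.73. Its log2 levels were 4.58, 4.78 and 4.83 in mice 92, 103 and 106, lowest in mouse 92, while Atr was lowest in mouse 103. The Brca1 window, chr11:101551906-101552205 on the minus strand, is shown as one of these shared start regions, with its single CCAAT match in capitals.
Brca1: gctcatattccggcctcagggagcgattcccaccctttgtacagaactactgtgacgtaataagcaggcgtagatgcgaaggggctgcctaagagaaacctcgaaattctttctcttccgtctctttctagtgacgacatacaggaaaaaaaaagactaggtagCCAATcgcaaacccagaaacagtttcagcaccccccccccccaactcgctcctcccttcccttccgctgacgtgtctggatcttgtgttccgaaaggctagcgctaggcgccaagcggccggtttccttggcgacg
Atm, Atr and Chek1 all lie on chromosome 9, Brca1 on chromosome 11, Mdm2 on 10, Mdm4 on 1, Chek2 on 5, Trp53bp1 on 2 and Mdc1 on 17 in RefSeq.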

How the data were processed

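Thymocyte RNA of 3 wild-type mice was prepared with Trizol and biotin-labelled, per the labels' protocols. The authors deposited log2 levels made with Affymetrix Expression Console, per the submitters' processing notes, and the log2 scale was inferred from values of 1.76 to 14.96. Background correction, summarisation and normalisation were not stated there. Probe sets with 1 gene symbol (21789) were averaged to 19938 genes. Another 1621 had several symbols and 12147 were not listed, and these stay unnamed. Spread was tested in R 4.3.3 using limma 3.58.1 (intercept, trended prior, variance over prior as an upper-tail F ratio, Benjamini-Hochberg over all genes tested). On simulated data this test missed most of the smaller shifts when many genes were shifted, because these widened the prior. Even those shifts were wider than the range of any checkpoint gene, so shifts of the size seen here were not simulated. Of the 158 symbols on the lists of pathways and markers, 146 were measured. Members, lists and tests were chosen with earlier results of these data known. Genes named from a pathway list were the 3 with the highest mean level (used only to choose examples), those not above background, the one with the largest SD, any called gene and the core p53 targets Bbc3, Pmaip1 and Ccng1. Arrays were also normalised by quantiles or centred on medians, robust priors, other background percentiles and no filter were tried, and each mouse was left out. No genome build is given for the probes. Windows, chromosomes and gene names come from RefSeq GRCm38.p6.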

Additional observations from a re-analysis of the deposited data

How the results depend on the processing

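All 9 checkpoint genes stayed above background, and 0 were called by limma, in every alternative run for these results, and no mean level moved by as much as its SD. Some of this was fixed in advance, since leaving a mouse out or lowering the background percentile cannot take such a gene below background. Centring cannot change a mean over the arrays, and leaving a mouse out cannot move it by its SD. Each gene has 1 probe set, so taking the highest one left its level unchanged. The adjusted p-values of the 9 genes lay between 0.943 and 0.998 over all alternatives (limma). The count of all varying genes, 30, was 18 after quantile normalisation, 0 with a robust prior and per-gene degrees of freedom (600 at an unadjusted p under 0.05), and 51 to 84 with a mouse left out. With a mouse left out, break sensors had 0 to 1 varying genes, thymocyte markers 0 to 1, B cell markers 1 to 4, neutrophil markers 0 to 8, erythroid markers 0 to 2 and macrophage markers 0 to 1. The B cell count of 1 was 0 after quantile normalisation, median centring, without the filter, with the highest probe set per gene or with per-gene degrees of freedom, and 3 with a robust prior and 1 number of degrees of freedom for most genes, where macrophage markers had 1. With per-gene degrees of freedom the neutrophil count of 5 was 0 and the erythroid count of 1 was 0. With background at the 99th percentile, 2 B cell, 3 neutrophil, 3 macrophage and 2 thymic epithelial markers were above it. The causes were not tested. No paired analysis was possible because the labels name 1 group.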
